A study of Mus musculus with 1989 samples.

Results

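The cells described here carry the working name of early postmitotic rearranging double-positive (DP) thymocytes, and were taken from 1 droplet-based single-cell RNA-seq library of thymus. They were selected on their own expression values, and rearrangement itself was not measured. A gate kept cells with Top2a equal to 0, Dntt above 1, Ly6d above 0 and Cd8b1 above 1 on the deposited log2 scale, and the 100 gate cells with the highest mean over Lgals1, Anxa2 and Ly6e (the score) were taken. Of the 1993 cells in the library, 54.7% had Top2a at 0, 571 of these had Dntt above 1, 492 of these had Ly6d above 0, and 450 passed the whole gate. The 100 members are compared with the other 350 gate cells, with 688 dividing cells that differ from the gate in having Top2a above 0, and with 103 selected cells that lie outside the gate and have Top2a at 0 and Cd8b1, Itm2a and Cd2 above 1.

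The thymocytes came from male C57BL/6 mice at 7 weeks of age, with no transgene or treatment named. The labels tie no cell to an animal, and the library therefore counts as 1 sample. No test, p-value or standard error was computed, and every difference below describes the cells of this library. SDs are over cells, and the exact binomial (Clopper-Pearson) and Poisson 95% intervals cover counting error only. A second experiment of the series measured open chromatin in single thymocytes sorted as DN, DP, CD4 or CD8, where each sort also counts as 1 sample.

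DP thymocytes carry both coreceptors, CD4 and CD8, on their surface. After passing the checkpoint for the T cell receptor beta chain they divide several times as large blasts, leave the cell cycle, and only then recombine the alpha chain locus with the Rag1-Rag2 recombinase. Terminal transferase, encoded by Dntt, adds bases to the joints, and a cell whose receptor binds self-peptide with MHC weakly is positively selected, lowers its recombinase and goes on to a single-positive fate. Galectin 1 (Lgals1) is a secreted sugar-binding lectin, annexin A2 (Anxa2) binds membrane phospholipids in the presence of calcium, and Ly6e is a lipid-anchored surface protein of the Ly6 family. On the GRCm38 build Lgals1 lies at chr15:78926725-78930465, Anxa2 at chr9:69453620-69491795 and Ly6e at chr15:74955051-74959905, all on the plus strand.

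The promoters of 3 genes on which the results turn are printed from RefSeq (GRCm38.p6), 250 bases before to 50 bases after the annotated start, read on the strand of the gene. Anxa2 is shown as a gene of the score (chr9:69453433-69453732, plus strand), and Hmgn2 (chr4:133967942-133968241, minus strand) and Hmgb2 (chr8:57511593-57511892, plus strand) are shown as the genes with the largest excess in the members. Capitals mark the E-box letters CAGCTG and CACCTG, the CCAAT box and the cell cycle homology letters TTTGAA, each searched on both strands with matches counted at any position. The CCAAT and TTTGAA searches were added after the genes higher in the members had been seen.
Anxa2: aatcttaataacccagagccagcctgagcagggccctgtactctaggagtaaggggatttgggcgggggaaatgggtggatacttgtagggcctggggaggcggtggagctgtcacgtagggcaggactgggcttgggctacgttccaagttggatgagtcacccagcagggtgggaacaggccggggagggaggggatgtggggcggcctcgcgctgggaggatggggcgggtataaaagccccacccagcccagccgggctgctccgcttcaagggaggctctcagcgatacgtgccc
Hmgn2: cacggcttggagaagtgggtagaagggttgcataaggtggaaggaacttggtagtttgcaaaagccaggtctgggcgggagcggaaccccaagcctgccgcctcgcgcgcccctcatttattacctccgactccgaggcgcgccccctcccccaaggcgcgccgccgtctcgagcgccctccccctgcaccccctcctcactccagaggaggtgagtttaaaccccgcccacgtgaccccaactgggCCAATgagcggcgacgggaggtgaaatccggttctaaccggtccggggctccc
Hmgb2: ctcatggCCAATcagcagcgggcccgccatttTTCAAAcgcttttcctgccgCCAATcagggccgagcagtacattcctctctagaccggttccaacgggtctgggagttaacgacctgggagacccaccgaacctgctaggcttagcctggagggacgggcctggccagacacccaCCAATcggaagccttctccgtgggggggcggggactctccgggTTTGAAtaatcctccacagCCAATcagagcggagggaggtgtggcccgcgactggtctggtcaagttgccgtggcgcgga
The Anxa2 window held none of the 4 motifs. The Hmgn2 window held 1 CCAAT box, and the Hmgb2 window held 4 CCAAT boxes and 2 TTTGAA matches, of which 1 is on the other strand and reads TTCAAA. Among all 32851 promoters of this length, 37.4% held CCAAT, 17.9% held TTTGAA, 16.3% held CAGCTG and 20.2% held CACCTG. A match describes the letters of a window and is not a measured binding site.

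The score set the members apart by construction, and the values are given as a description only. The mean over the 3 genes ran from 2.72 to 4.21 with a median of 3.11 in the members, and from 0 to 2.71 with a median of 1.92 in the other gate cells. The cut fell inside a continuous range, since the last cell inside had a score of 2.715 and the first cell outside had 2.706. Lgals1 ran from 0.99 to 5.04 with a median of 3.25 in the members, against 0 to 4.20 with a median of 1.28 in the other gate cells. Anxa2 ran from 0.29 to 4.38 with a median of 2.31, against 0 to 3.95 with a median of 0.78. Ly6e ran from 2.00 to 5.82 with a median of 4.02, against 0 to 5.15 with a median of 3.38. None of the 3 genes alone separated the groups: 18 of the 350 other gate cells (5.14%) reached the members' median of Lgals1, 32 (9.14%) that of Anxa2 and 58 (16.6%) that of Ly6e. Ly6e was the highest of the 3 genes in 74 members, Lgals1 in 24 and Anxa2 in 2.

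**Figure D1:**
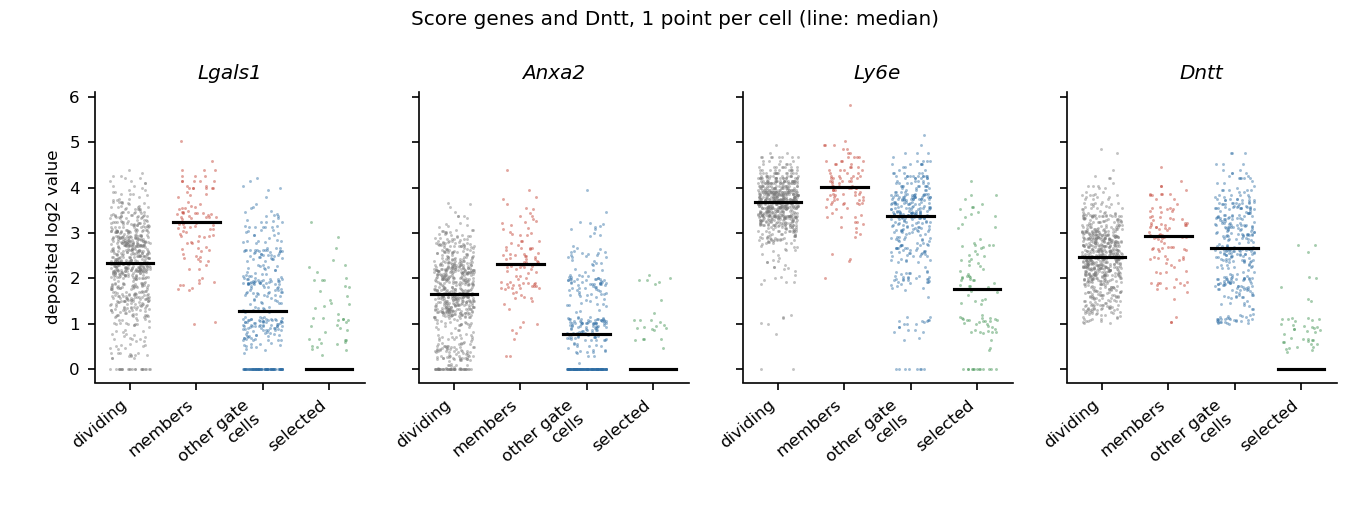
Deposited log2 values of Lgals1, Anxa2, Ly6e and Dntt (vertical axis), 1 point per cell, in 688 dividing cells, 100 members, 350 other gate cells and 103 selected cells, with a line at each median. The members were chosen for high Lgals1, Anxa2 and Ly6e, and on each of these genes their range overlaps that of the other gate cells.

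The gene Dntt had a median of 2.93 in the members and 2.68 in the other gate cells, within a gate that asked for a value above 1. Depth was alike in the 2 groups. A step is the place of a value in the order of the different values that occur in one cell, with 0 as the lowest, and it stands in for a count. The members had a median of 2059 steps per cell (1557 to 7492), the other gate cells 1940 and the selected cells 1977, whereas the dividing cells had 5358. Comparisons with dividing or selected cells therefore use values thinned to 1300 steps per cell. Differences at equal depth are differences of the mean of log2(steps + 1).

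The word postmitotic in the label was checked on genes that the rule did not use, although all were measured in the same cells as the rule. Mki67, a protein of the dividing cell's chromosomes, was above 0 in 19 of 100 members (19%, interval 11.8 to 28.1%), in 44 of 350 other gate cells (12.6%, 9.29 to 16.5%), in 514 of 688 dividing cells (74.7%) and in 8 of 103 selected cells (7.77%, 3.41 to 14.7%). After thinning, the shares were 11% in the members, 4.86% in the other gate cells, 36.9% in the dividing cells and 6.80% in the selected cells, a group without Top2a by its rule that stands for the background. The members' share lay far below that of the dividing cells and above those of the other gate cells and the selected cells. Their interval of 5.62 to 18.8% overlapped those of the last 2 groups. Both of these groups have Top2a at 0 only by rule, so the comparison does not settle the word postmitotic. Pcna, the sliding clamp of DNA replication, was above 0 at equal depth in 20% of the members (12.7 to 29.2%), 14.6% of the other gate cells, 52.6% of the dividing cells and 18.4% of the selected cells. Without thinning the Pcna shares were 32%, 23.4%, 79.9% and 25.2% in the same order. At equal depth a member had a median of 2 of the 41 S phase genes above 0 (0 to 15), as did the other gate cells and the selected cells, and a dividing cell had 8. Of the 51 G2/M genes a member had, also at equal depth, a median of 5 (0 to 23), an other gate cell 4, a selected cell 4 and a dividing cell 14.

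The word rearranging was checked on the recombinase genes. Rag1 ran from 0 to 4.67 with a median of 1.79 in the members and from 0 to 4.32 with a median of 1.70 in the other gate cells. The means were 1.71 ± 1.08 (SD, n = 100 cells) and 1.65 ± 1.23 (SD, n = 350 cells), a difference of 0.06 on the log2 scale that is small beside the SD. At equal depth Rag1 was above 0 in 75% of the members (65.3 to 83.1%), 63.1% of the other gate cells, 39.1% of the dividing cells and 22.3% of the selected cells (14.7 to 31.6%). Rag2 was above 0 at equal depth in 22% of the members, 22.6% of the other gate cells, 18.0% of the dividing cells and 5.83% of the selected cells. Without thinning the shares were 87%, 79.1%, 82.3% and 30.1% for Rag1 and 38%, 34%, 46.9% and 8.74% for Rag2 in the same order. At equal depth the Rag1 intervals of the members and the other gate cells overlapped, and both groups had Rag1 in a larger share of cells than the dividing and the selected cells. Both Rag1 and Rag2 were above 0 in 29 of 100 members and in 102 of 350 other gate cells (29.1%).

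Markers of earlier, later and other cells were also examined. Il2ra, the CD25 chain that marks double-negative stages, was above 0 in 4 members (4%, 1.10 to 9.93%), in 20 other gate cells (5.71%) and in 0 of 103 selected cells, which allows a share of cells with detected Il2ra of up to 2.91% and sets no limit on cells that express it. Ptcra, the pre-T alpha chain, was above 0 at equal depth in 24% of the members (16.0 to 33.6%), 12.9% of the other gate cells (9.54 to 16.8%), 16.9% of the dividing cells and 2.91% of the selected cells. Without thinning the Ptcra shares were 30%, 20.9%, 41.7% and 4.85%. Cd69 and Ccr7, which mark selected and mature cells, were each above 0 in 3 members (3%, 0.623 to 8.52%), against 33.0% and 29.1% of the selected cells. They were above 0 in 4% and 2% of the next 100 gate cells by score. Among the 249 gate cells below these with a score above 0 the shares were 10.0% and 7.23%. Itm2a, a surface gene of the selected stage by which the selected cells were chosen, was above 0 in 19 members (19%, 11.8 to 28.1%) and in 17.7% of the other gate cells, and at equal depth in 11% and 12% of them. Cd4 was above 0 in 61 members and Cd8a in 98, and 59 members had both. Of the 11 innate-like lymphocyte markers, 62 members had none above 0 at equal depth, with a summed level there from 0 to 19 steps (median 0), and 4 of the 11 markers were at 0 in all members without thinning. Of the 11 antigen-presenting cell markers, 28 members had none above 0 at equal depth, with a summed level there from 0 to 10 steps (median 1), and 2 of the 11 were at 0 in all members without thinning. At the same depth 56.9% and 34.3% of the other gate cells had none of these 2 sets. Without the gate cells that had, before thinning, 2 or more defining markers of these sets, which left 88 members and 299 other gate cells, 76 genes were higher and 30 lower, of which 70 and 27 were among the genes called with all cells.

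**Figure D2:**
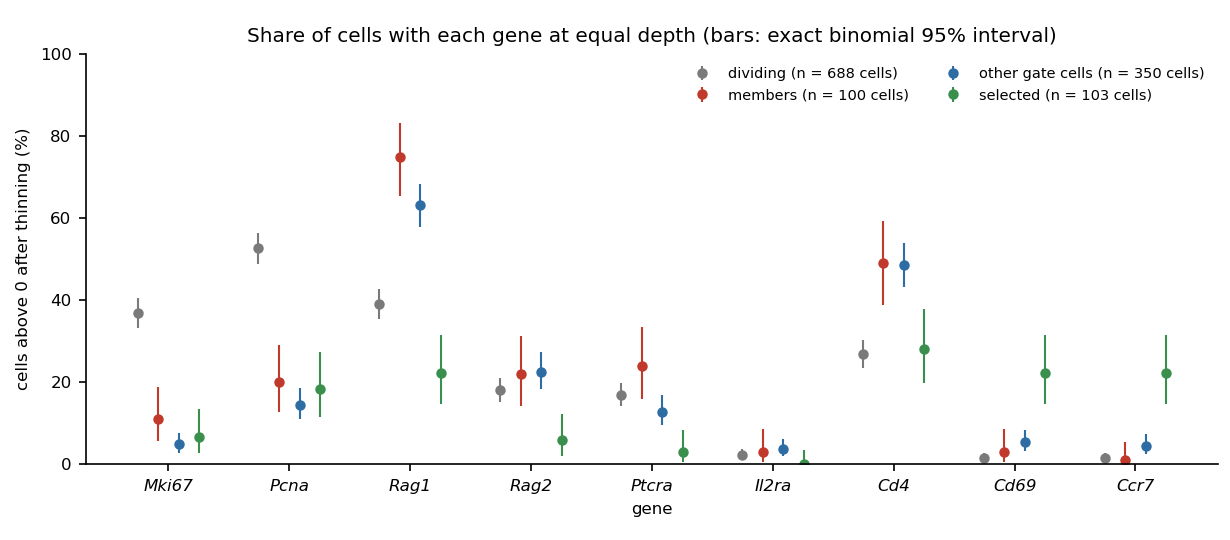
Percentage of cells with each gene above 0 after thinning to 1300 steps (vertical axis) for Mki67, Pcna, Rag1, Rag2, Ptcra, Il2ra, Cd4, Cd69 and Ccr7 in dividing cells, members, other gate cells and selected cells, with exact binomial 95% intervals. Mki67 and Pcna are highest in dividing cells, and Rag1 is highest in members (75%) and other gate cells (63.1%).

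Of 2437 genes above 0 in at least 20% of either group, with the 7 genes of the rule left out, 82 (3.36%) had a mean higher in the members by at least 0.25 on the log2 scale and 31 (1.27%) a mean lower by at least that much. The median difference over all 2437 genes was 0.01. The genes higher in the members were led by Hmgn2, Hmgb2, Stmn1, H2afz and Anp32e, and the genes lower in the members by Cd52, Trac, Malat1, Snrnp70 and Luc7l2. As all these genes were measured in the cells that the score chose, the counts describe the choice and are not a test of it. Each of the 82 and each of the 31 genes kept its sign at equal depth, where 20 and 9 of them still differed by 0.25.

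**Figure D3:**
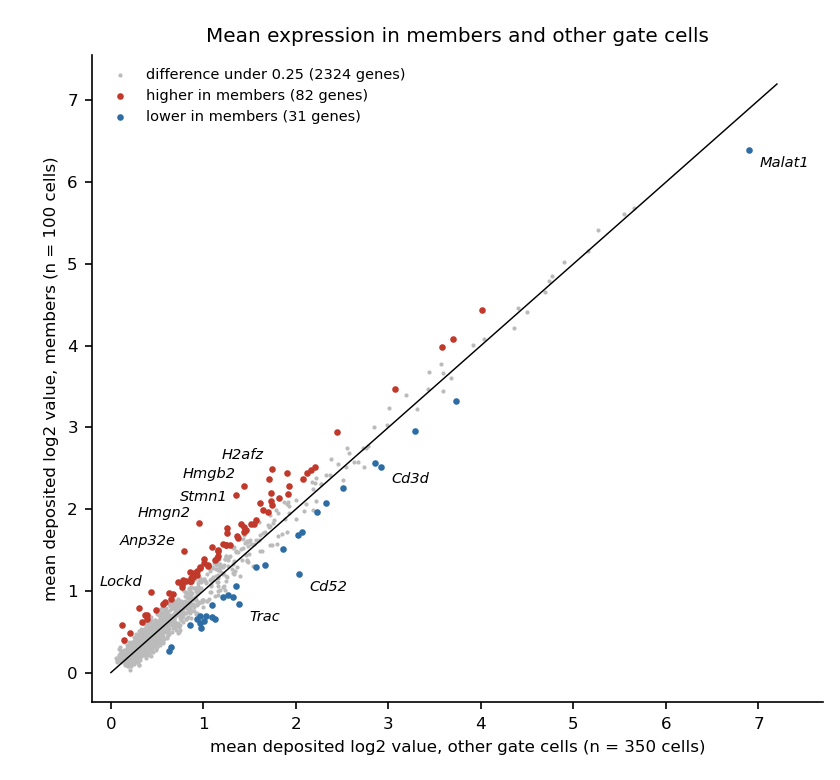
Mean deposited log2 value of 2437 genes in 350 other gate cells (horizontal axis) and in 100 members (vertical axis), 1 point per gene, with the line of equal means. The 82 genes higher by at least 0.25 are in red and the 31 lower ones in blue, and most genes lie close to the line.

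Genes of chromatin proteins, several of them known to be abundant in dividing cells, were among those with the largest excess. Hmgn2, a nucleosome-binding high mobility group protein, ran from 0 to 4.94 with a median of 1.80 in the members and from 0 to 4.52 with a median of 0.75 in the other gate cells. Its mean was 1.83 ± 1.45 (SD, n = 100 cells) against 0.95 ± 1.09 (SD, n = 350 cells), a difference of 0.88. Its ranges overlapped almost fully, and the upper quartile was 3.04 in the members and 1.48 in the other gate cells. Hmgb2, which bends DNA, ran from 0 to 7.14 in the members (median 1.79) and from 0 to 5.82 in the other gate cells (median 1.02), and its means differed by 0.84. The histone variant gene H2afz had medians of 2.48 and 1.77 and a difference of 0.75, and the related H2afv a difference of 0.52. Anp32e, a chaperone that removes H2A.Z from chromatin, had medians of 1.58 and 0.73, was above 0 in 82% and 56.6% of the cells, and differed by 0.69. Cenpa, the histone H3 variant of centromeres, was above 0 in 47% and 22.3% of the cells and differed by 0.49. H3f3b, which encodes the replication-independent histone H3.3, lay in the other direction with means of 3.32 and 3.73 and a difference of -0.41. In the list of 11 measured HMG and variant histone genes, 4 were higher (36.4%, beside 3.36% of all genes) and 1 was lower (9.09%, beside 1.27%), with a median difference of 0.21 where the median over all genes was 0.01.

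Genes of the spindle and of mitosis gave a mixed count. Stmn1, which destabilizes microtubules and is abundant in dividing cells, had medians of 2.41 in the members and 1.05 in the other gate cells and means of 2.18 ± 1.36 and 1.35 ± 1.19, a difference of 0.83. Tubb5 and Tubb2b, encoding beta-tubulins, were higher by 0.32 and 0.27, so that 3 of the 6 measured genes of the tubulin and stathmin list were higher (50%, beside 3.36% of all genes), with a median of 0.21. Of 19 measured G2/M genes 4 were higher, namely Hmgb2, Anp32e, Cenpa and the cyclin gene Ccnb2, and none was lower, with a median of 0.12. The 4 are 21.1% of the list, beside 3.36% of all genes higher. None of the 9 measured S phase genes differed by 0.25, although all 9 had a positive difference, with a median of 0.04. Cdca7 and Nasp, a histone chaperone, had differences of 0.16 and 0.11, and Pcna 0.10. Lockd, a long noncoding RNA transcribed next to the gene of the cell cycle inhibitor p27, was above 0 in 64% of the members and 32% of the other gate cells and was higher by 0.56.

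The excess of these genes was not spread evenly over the members. The 19 members with Mki67 above 0 had a mean Hmgb2 of 3.77 ± 1.86 and the 81 members with Mki67 at 0 a mean of 1.93 ± 1.67, against 1.44 in all other gate cells and 4.65 in the dividing cells. Stmn1 was 3.34 ± 0.85 and 1.90 ± 1.31, H2afz 3.90 ± 1.08 and 2.16 ± 1.38, and Hmgn2 2.91 ± 1.09 and 1.57 ± 1.42 in the same order, beside 3.76, 4.45 and 3.18 in the dividing cells. Of the genes of the score, Lgals1 was at 3.06 ± 0.80 and 3.22 ± 0.78, Anxa2 at 2.35 ± 0.77 and 2.31 ± 0.78, and Ly6e at 4.30 ± 0.67 and 3.92 ± 0.58. The first of these was slightly lower and Ly6e higher in the members with Mki67, by less than 1 SD. The mean of Rag1 was 1.29 ± 0.94 in the members with Mki67 and 1.81 ± 1.09 in the others, a gap of less than 1 SD, and at equal depth 0.90 ± 0.73 and 1.10 ± 0.78. Rag2 had means of 0.47 ± 0.68 and 0.36 ± 0.55, and of 0.14 ± 0.42 and 0.25 ± 0.43 at equal depth, where the order turned. Arpp21, an RNA-binding protein of cortical thymocytes, was lower in the members with Mki67, at 1.24 ± 0.90 against 1.96 ± 1.14. The members with Mki67 were deeper, with a median of 2659 steps against 2040. At equal depth the Hmgb2 values were 2.49 ± 1.12 and 1.31 ± 1.12, beside 2.71 ± 0.89 in the dividing cells. At that depth the members with Mki67 were at 1.85 (Stmn1), 2.48 (H2afz) and 1.85 (Hmgn2), beside 2.33, 2.66 and 1.91 in the dividing cells. Top2a was 0 in these 19 cells by the rule, so for them the word postmitotic rests on that gene. Of the 688 dividing cells, all with Top2a above 0 by rule, 509 (74.0%) still had Top2a above 0 at equal depth. A Top2a value of 0 therefore does not show that a cell lacks the transcript. How many gate cells this concerns was not tested. The Arpp21 values at equal depth were 0.65 ± 0.67 and 1.26 ± 0.83. When the cells with Mki67 above 0 were left out of both groups (19 members and 44 other gate cells), 67 genes were higher and 26 lower, of which 62 and 24 were among the 82 and 31.

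Nuclear genes of oxidative phosphorylation were among those higher in the members. Of the 75 measured nuclear-encoded genes of oxidative phosphorylation, 13 were higher in the members (17.3% of the list, beside 3.36% of all genes), none was lower, and 67 had a positive difference, with a median of 0.10. At equal depth 3 of 71 genes of the list were higher (4.23%, beside 1.48% of all genes). Cox6b1, a subunit of cytochrome c oxidase, had means of 2.19 ± 0.83 and 1.73 ± 0.93, a difference of 0.46. Atp5k, a subunit of ATP synthase, was higher by 0.44 and Cox6a1 by 0.41. The 12 measured genes of the mitochondrial genome, which encode other subunits of the same complexes, had a median of -0.03, with 6 positive, 6 negative and none past 0.25. Of 7 measured glycolysis genes 1 was higher (14.3%, beside 3.36% of all genes), Gapdh at 0.46. A further 5 had negative differences, among them Ldha, lactate dehydrogenase A, at -0.16. In the growth and ribosome biogenesis list 1 of 26 genes was higher, Ran, the GTPase of nuclear transport, at 0.36. This is 3.85% of the list, near the 3.36% of all genes. The redox protein gene Txn1 was higher by 0.53, the cold-inducible RNA-binding protein gene Rbm3 by 0.49 and Crip1, a small LIM-domain protein, by 0.66.

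Some genes of the T cell receptor complex and of later stages were lower in the members. Of 10 measured genes of the coreceptor, CD3 and receptor list 2 were lower (Trac and Cd3d, 20% of the list beside 1.27% of all genes) and 1 was higher (Trdc, 10% beside 3.36%), with 4 positive and 6 negative differences and a median of -0.03. Trac, the constant region of the alpha chain, was above 0 in 59% of the members and 70.3% of the other gate cells, with medians of 0.68 and 1.11. Its means were 0.83 ± 0.94 and 1.38 ± 1.21, a difference of -0.55. Cd52, a small surface glycoprotein of mature lymphocytes, had medians of 0.97 and 1.91 and a difference of -0.83, the most negative of all genes compared. Cd3d, a chain of the CD3 complex, was detected in nearly every cell of both groups (96% and 98.3%) and was lower by 0.40 on average, with means of 2.52 and 2.92. The adaptor gene Tespa1, which acts downstream of the receptor, had a difference of -0.37, the costimulatory receptor gene Cd27 -0.35, Shisa5 -0.36 and the chromatin organizer gene Satb1 -0.33. Of 6 measured genes of the selection and T cell receptor signal list 2 were lower, Cd27 and Ptprc (the phosphatase CD45), and all 6 had negative differences, with a median of -0.21. These are 33.3% of the genes measured, beside 1.27% of all genes. The 18 genes of this list include few that were frequent enough to be measured in these cells. Of 7 measured late maturation genes 3 were lower, Cd52, Shisa5 and the GTPase gene Gimap6 (42.9%, beside 1.27% of all genes), with a median of -0.11. Within the receptor list Trdc, the delta constant region, which lies inside the alpha chain locus, differed by 0.28 in the other direction, and was above 0 in 41% and 26.3% of the cells.

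The nuclear RNA Malat1 had a mean of 6.39 ± 0.96 in the members and 6.90 ± 0.72 in the other gate cells, with a median at the highest value of the table, 7.14, in both. The difference of -0.51 shrank to -0.08 at equal depth, where steps understate highly expressed genes. The genes Snrnp70 (the 70K protein of the U1 splicing particle), Luc7l2 (a U1-associated factor) and Celf2 (an RNA-binding regulator of splicing) had differences of -0.47, -0.43 and -0.39. No list of splicing genes was fixed, and other such genes had the opposite sign, with Snrpg at 0.31, Snrpb at 0.30, Hnrnpa1 at 0.28 and Srsf2 at 0.25.

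The genes of the rearrangement stage were also compared within the gate. Arpp21 had means of 1.82 ± 1.13 and 1.76 ± 1.17. Endou, an endoribonuclease family member of DP cells, was 1.97 ± 1.10 and 1.70 ± 1.16, a difference of 0.26. The Endou difference turned to -0.0063 when only the 50 highest cells were taken. Mier1 differed by -0.23. Of 9 measured genes of the list 1 was higher and 1 lower (Endou and Tespa1), with a median of -0.07. Each is 11.1% of the list, beside 3.36% of all genes higher and 1.27% lower. Among 15 DP transcription factor genes only Satb1 passed 0.25, which is 6.67% of the list. Tcf7, the T cell factor 1 gene, differed by 0.23 and Ikzf1, which encodes Ikaros, by -0.23. Of the end joining genes that close the recombination breaks, Xrcc6 (Ku70) was above 0 in 80% of the members and 66% of the other gate cells, with a difference of 0.19, and Lig4 differed by 0.06.

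Relatives of the score genes were measured as well, in a list of S100, annexin and galectin genes that also holds Crip1, Vim and Ahnak. Of its 8 measured genes only Crip1 passed 0.25 (12.5% of the list beside 3.36% of all genes), so no S100, annexin or galectin gene other than those of the score did, and the median was 0.05 with 7 positive differences. The genes S100a13 and S100a11, which encode small calcium-binding proteins, differed by 0.14 and -0.14. The annexin gene Anxa5 had means of 0.38 and 0.35. Of the Ly6 family list, Ly6e and Ly6d were left out as genes of the rule, and no other gene was above 0 in 20% of the cells of either group.

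Further lists held 0 to 2 genes past 0.25. The list of G1 regulators holds genes that drive the cycle and genes that hold it back. Of its 11 measured genes, the transcription factor gene Klf13 and the antiproliferative gene Btg1 were lower (18.2%, beside 1.27% of all genes). Their differences were -0.32 and -0.26, and the median of the list was 0.07. Of 13 thymosin and actin genes 1 was lower (7.69%, beside 1.27% of all genes), Tmsb10 at -0.26. The Tmsb10 difference was 0.21 against other gate cells of matched depth. Of 5 migration genes 1 was lower (20%), Ccr9, a chemokine receptor of cortical thymocytes, with a difference of -0.34. The immediate early and stress list had Hsp90ab1, a chaperone, at 0.36 and Jund, a subunit of AP-1, at -0.27, with 6 genes measured (16.7% in each direction, beside 3.36% and 1.27% of all genes). None of 13 MHC class I genes passed, with a median of -0.07 and B2m at -0.18. None of 6 survival genes passed either, with Bcl2l1, which encodes the anti-apoptotic Bcl-xL, at 0.13.

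The gate cells were also placed in order of the score. Of the 82 genes higher in the members, 78 had a mean that decreased from the members through the next 100 cells to the remaining 249 gate cells with a score above 0, as did 577 of all 2437 genes. Of the 31 lower genes 28 had the opposite order, as did 402 of all genes. This order rests in part on the same members that chose the genes. The single gate cell with a score of 0 was not used. Hmgb2 had means of 2.28 ± 1.85, 1.99 ± 1.77 and 1.22 ± 1.19 in this order, Trac 0.83 ± 0.94, 0.99 ± 1.06 and 1.53 ± 1.23, and Cd3d 2.52 ± 1.03, 2.74 ± 0.88 and 2.98 ± 0.95. Rag1 showed no such order, with means of 1.71 ± 1.08, 1.58 ± 1.10 and 1.68 ± 1.28, nor did Cd4, with means of 0.90, 0.97 and 0.89.

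Against the dividing cells at equal depth, 66 genes (4.63% of those compared) were higher in the members and 95 (6.66%) lower by at least 0.25. Neither the S phase nor the G2/M list had a gene higher. Of 26 measured G2/M genes 15 were lower, with a median of -0.28, and of 14 S phase genes 7 were lower, with a median of -0.25. Hmgb2 had a mean of 1.54 ± 1.21 in the members and 2.71 ± 0.89 in the dividing cells, H2afz 1.61 ± 1.02 and 2.66 ± 0.79, and Stmn1 1.33 ± 0.98 and 2.33 ± 0.83. These genes, which were higher in the members than in the other gate cells, were thus lower in the members than in the dividing cells. Of the 82 higher genes 53 were placed in this way with the members between the dividing and the other gate cells, and of the 31 lower genes 24 in the mirrored order. Of all 2437 genes 17.4% had the first order and 24.1% the mirrored one. The called genes were chosen for their difference in the same members, and all kept its sign at equal depth. For them only the order of members and dividing cells was free. The shares over all genes carry no such condition, so they are not a like baseline and the counts are a description. The receptor genes had the other sign, with 6 of 10 genes of the coreceptor, CD3 and receptor list higher in the members and a median of 0.29, and 4 of 8 rearrangement stage genes higher with a median of 0.24. Rag1 was higher by 0.57 in the members and the chemokine receptor gene Ccr9 by 0.53. All 10 measured genes of the mitochondrial genome had positive differences, with a median of 0.22, and 6 of 22 growth genes were lower, with Ran at -0.57. Anp32e differed by -0.17, a smaller gap than that of Hmgb2, and Tubb2b was higher in the members by 0.65.

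Against the selected cells at equal depth, 107 of 1477 genes (7.24%) were higher in the members and 92 (6.23%) lower. The selected cells were chosen for high Itm2a and Cd2 and lie outside a gate that asks for Dntt and Ly6d. The rearrangement stage list had 5 of 8 genes higher, led by Endou at 1.08, and 1 lower, Tespa1 at -0.33, with a median of 0.42. Of 10 coreceptor, CD3 and receptor genes 5 were higher and 3 lower. Of 11 DP transcription factor genes 3 were higher and 4 lower, and of 19 growth genes 0 were higher and 5 lower. Rag1 was higher in the members by 0.82 and Cd8a by 1.09. Of the selection and T cell receptor signal list 8 of 10 genes were lower, with a median of -0.39. The Itm2a and Cd2 used to choose the selected cells were left out of this count. Of the late maturation list 5 of 10 were lower, with Cd52 at -1.77 and Shisa5 at -1.12, and of the thymosin and actin list 8 of 13, with Tmsb10, an actin-binding thymosin, at -2.40. The MHC class I list had 4 of 13 genes lower, with the light chain gene B2m at -0.69. Hmgb2 was higher in the members by 0.84, and 4 of 12 G2/M genes were higher.

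**Figure D4:**
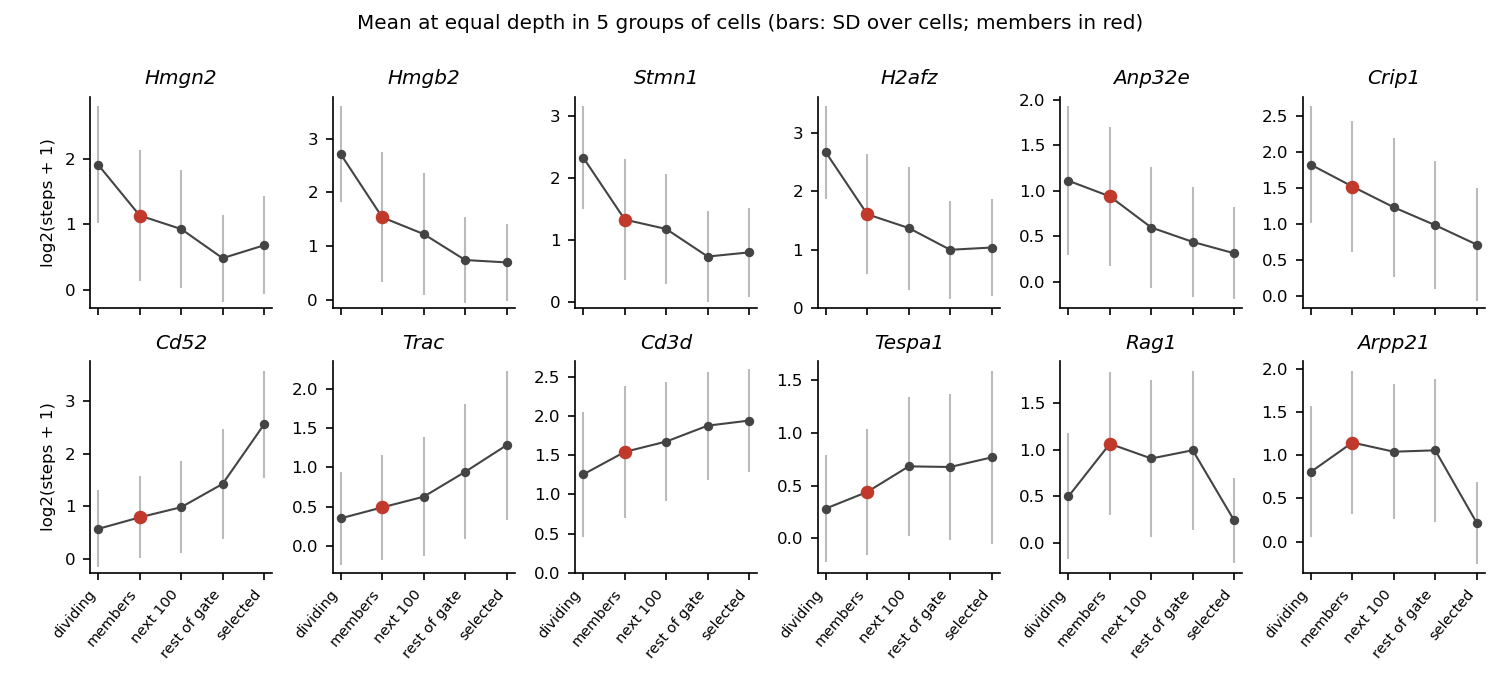
Mean log2(steps + 1) at equal depth (vertical axis) of 12 genes in dividing cells, members (red), the next 100 gate cells by score, the rest of the gate and selected cells, with bars of 1 SD over cells. Hmgb2 goes from 2.71 in dividing cells to 1.54 in members, Trac from 0.35 to 0.49, and Rag1 from 0.50 to 1.06, each with wide SDs.

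**Figure D5:**
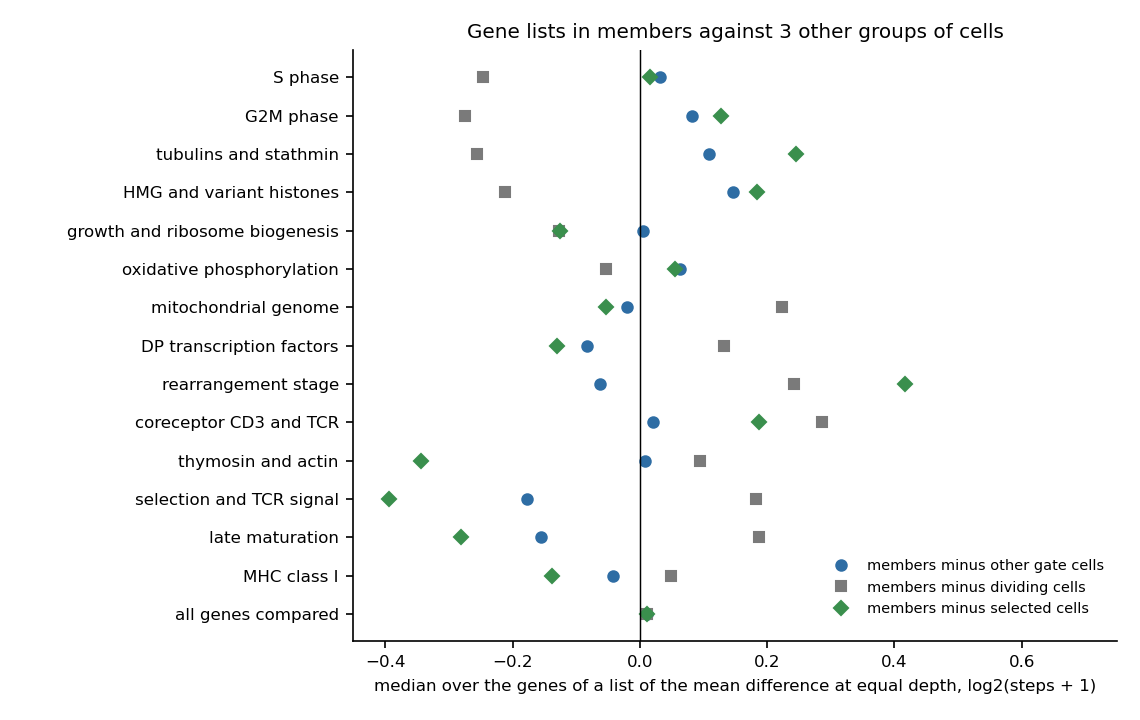
Median over the measured genes of each list of the mean difference at equal depth (horizontal axis, log2(steps + 1)) between members and other gate cells, dividing cells and selected cells, with all genes compared in the bottom line. The G2/M median is 0.08 against other gate cells and -0.28 against dividing cells, and the rearrangement stage median is 0.42 against selected cells.

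The place of the members among all cells was described by their 10 nearest neighbours over 20 principal components of the variable genes without the 7 genes of the rule. Of 1000 neighbours of the members 237 (23.7%) were other members, who make up 5.02% of all cells. A further 39.5% were other gate cells, 231 (23.1%) dividing cells and 0 selected cells. Of all cells 17.6% were other gate cells, 34.5% dividing and 5.17% selected, so the share of dividing neighbours was below that of dividing cells in the library. Of 3500 neighbours of the other gate cells 487 (13.9%) were dividing and 66 (1.89%) selected. The next 100 cells by score had 20.2% dividing neighbours and the 249 cells below them 11.5%. Members made up 12.1% of the neighbours of the other gate cells. That share was 17.6% for the next 100 cells and 9.92% for the 249 below them. The number of other members among the 10 neighbours had a median of 2 and a maximum of 8, and 21 of the 100 members had none.

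Promoter accessibility of the score genes was read in the sorted single-cell ATAC data, which the rule did not use and in which the members cannot be recognized. The Lgals1 promoter peak, whose centre is 3 bases from the start, held 29 counts in 182 DN cells and 10 in 125 DP cells. Per 10000 counts in peaks this is 0.26 (Poisson interval 0.18 to 0.38) in DN and 0.21 (0.10 to 0.38) in DP, with 0.27 in CD4 and 0.22 in CD8 sorts. The ratio of DN to DP was 1.25 with an interval of 0.59 to 2.88. The cell labels carry numbers in 2 separate ranges. Within cells with label numbers under 10000 it was 0.73 (0.28 to 1.96) and within those from 31000 it was 2.75 (0.43 to 115), where the DP side held 1 count. The CD4 level was 0.044 (2 counts) in the first range and 1.23 (13 counts) in the second, and the CD8 level 0.19 (9 counts) and 0.64 (2 counts), so the pooled levels mix unlike ranges. The Anxa2 ratio was 0.70 (0.27 to 1.95) and the Ly6e ratio 1.64 (0.59 to 5.62). A difference between DN and DP at these promoters was not detectable at this depth. The Rag1 promoter, measured in the same way, had 0.84 (0.60 to 1.14) in DP, 0.20 (0.12 to 0.30) in DN and 0 of 558091 counts in CD4 sorts. The 79 promoters of genes higher in the members that had a count in the DP sort had a median DN to DP ratio of 1.03 and the 29 of lower genes 0.86, beside 0.99 for 2247 genes compared.

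Among the genes higher in the members, 60 had a promoter in the RefSeq table and 32 of these (53.3%) held CCAAT, against 40.3% of the 1928 promoters of genes compared. TTTGAA was in 13 of the 60 (21.7%) against 12.1%, CAGCTG in 8 (13.3%) against 12.0% and CACCTG in 5 (8.33%) against 16.0%. Of the 27 promoters of genes lower in the members, 13 (48.1%) held CCAAT and 5 (18.5%) TTTGAA. These shares are descriptions of letters in the printed window length, with no test.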

How the data were processed

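Single-cell RNA-seq of 1 thymus library and single-cell ATAC-seq of sorted thymocytes were used. For RNA, the authors aligned reads with Cell Ranger, listed as version 1.3.1 with the builds GRCm38.p5 and hg38 in the submitters' processing notes, filtered cells and genes, quantile normalized across cells and deposited log2 values, with zeros kept at 0, for 8846 genes in 1993 cells, of which 79.7% were 0. No barcode was duplicated. The deposited values include 13 genes of the mitochondrial genome. Counts of molecules were not used here, so the depth of a cell is known only from its detected genes. Since quantile normalization does not reorder a cell, each value was replaced by its place in the order of the different values present there (a step), which stood in for a count and understates highly expressed genes. Cells were thinned at random to 1300 steps with no cell under that total, and log2 was taken with a pseudocount of 1. No doublet caller was run, because counts were not used; leaving out the 5% of gate cells with the most detected genes was an alternative, and 7 cells in the table had more than 4500 genes.

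For ATAC, the authors trimmed and mapped the reads (Bowtie2), discarded duplicates (Picard), merged all cells to call peaks (MACS2) and deposited counts per peak and cell in 138317 peaks of 4000 bases. Tool versions are not given in the sources used here. The build of the peaks was checked: 24.5% of peak centres lay within 2 kb of a GRCm38 start, and 7.36% after a shift of 100000 bases. A promoter peak is the peak with its centre nearest to the start, within 2 kb. The sorts held 1108749 (DN), 478264 (DP), 558091 (CD4) and 494645 (CD8) counts. The 1446 columns of total or unassigned cells were not used.

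Genes above 0 in at least 20% of either group were compared, and a mean difference of at least 0.25 was called. The genes named were the 7 of the rule, the 12 called genes of largest difference in each direction, the 3 of largest difference in each list and a fixed set of markers. Others (Ccnb2, Anxa5, Arpp21, Snrpg, Snrpb, Hnrnpa1, Srsf2 and members of lists that passed 0.25) are named to account for a count and were chosen after their values were seen. Shares have exact binomial intervals at 95%, and a share of 0 is given the limit of 3 cells. The members and lists were chosen with earlier results of these data known. The calling step was also run on simulated cells with changes planted in often-detected genes. That run did not include the choice of members by a score, so it says nothing about calls made after such a choice. Python 3.11.15, numpy 2.4.6, pandas 2.3.3, scipy 1.17.1, scikit-learn 1.9.0 and matplotlib 3.10.9 were used. A gene of the fixed set is not reported here.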

Additional observations from a re-analysis of the deposited data

How the results depend on the processing

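No paired analysis was possible because there is 1 library and no value comes from a test. The count of genes higher in members was 82 and of genes lower in members 31. At equal depth the counts were 20 and 9, among fewer genes compared and on a compressed scale, and with a difference of 0.5 in place of 0.25 they were 9 and 3. With the 50 highest cells 106 genes were higher and 60 lower. Against 126 depth-matched other gate cells 122 were higher and 39 lower, of which 69 and 24 were among the 82 and 31. The share of members with Mki67 above 0 was 11% at equal depth in place of 19%. The Rag1 mean difference of 0.06 became -0.047 against 126 depth-matched other gate cells and 0.24 for the 50 highest cells, and the cause was not tested. The S phase median difference was negative for the 50 highest cells (-0.0069) and for a score from thinned steps (-0.0084), and the rearrangement stage median difference was positive with Dntt above 0 (0.0034) and with Lgals1 left out of the score (0.02). The Tmsb10 difference turned from -0.26 to 0.21 against depth-matched cells, and the Endou difference from 0.26 to -0.0063 for the 50 highest cells and -0.030 with Anxa2 left out of the score. Leaving 1 gene out of the score kept 72 (Lgals1), 70 (Anxa2) and 85 (Ly6e) of the 100 members. Without Lgals1, 44 of the 82 higher and 19 of the 31 lower genes were still called. Without Anxa2 these counts were 68 and 24, and without Ly6e 55 and 21. Of 41 named genes past 0.25, 39 kept their sign in the alternatives run. Low promoter counts limit the ATAC ratios, and a gene in under 20% of cells of both groups was not compared.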
